A study of Mus musculus with 4 samples.

Results

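The loci of 10 genes of the WNT and GSK3 pathway were examined in mouse embryonic stem cells: Wnt3, Lgr5, Gsk3b, Axin1, Axin2, Apc, Ctnnb1, Tcf7l1, Tcf7 and Lef1. The genes were taken by name from 21631 protein-coding genes of the RefSeq annotation (GRCm38.p6, the assembly that mm10 names). A locus was the annotated gene with 50 kb on either side, and every called peak with at least 1 bp inside it was kept. The loci held 42 of 21600 H3K4me3 peaks, 83 of 51737 CTCF peaks and 91 of 75897 RAD21 peaks. Bruce-4, an embryonic stem cell line of C57BL/6J genotype, was grown on gelatin in medium with serum, 2i and LIF. For ChIP-exo, in which an exonuclease trims the immunoprecipitated DNA towards the crosslinked protein, 10000000 cells were fixed in 1% formaldehyde for 10 min. The 4 libraries were made with antibodies against H3K4me3 (1 library), CTCF (2 libraries) and RAD21 (1 library). All came from this single line in this single medium, so no culture without 2i was available for comparison and no effect of 2i on these loci could be measured.

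WNT ligands bind Frizzled and LRP receptors at the cell surface. Without ligand, a complex of AXIN, APC, casein kinase and GSK3 phosphorylates β-catenin and marks it for destruction; with ligand, β-catenin enters the nucleus and binds TCF/LEF factors. The 2i medium combines an inhibitor of GSK3 with an inhibitor of MEK, and in embryonic stem cells stabilised β-catenin relieves repression by TCF7L1. H3K4me3 is a histone mark of active and poised promoters, CTCF is a DNA-binding zinc finger protein that halts cohesin, and RAD21 is a subunit of the cohesin ring.

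Each antibody was represented by 1 peak list, which gave positions alone, so peak height and depth were unknown. The CTCF list was a union recorded under the second CTCF library, and a list of the first was not analysed here. No call could be checked against a replicate, and a gene without a peak was one where none was called. Peaks had median lengths of 682 bp for H3K4me3, 104 bp for CTCF and 140 bp for RAD21. The cell type label was set against marker genes by an H3K4me3 peak within 1 kb of a gene start. All 8 markers of pluripotent cells were marked, against 2 of 6 fibroblast markers (Thy1 and Twist1) and 2 of 6 markers of other tissues (Cd3e and Myod1). Over all protein-coding genes the share was 59.9%. Col1a1, Col1a2 and Col3a1, which encode fibrillar collagens of fibroblasts, had no H3K4me3 peak at a start. Inside the gene H3K4me3 was called in all 8 pluripotency markers, 4 of 6 fibroblast markers (Col1a1 among them) and 3 of 6 others, beside 63.5% of protein-coding genes.

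The letters under the calls at the gene starts are shown for 3 promoters: Axin2, where CTCF and RAD21 were called over a CTCF-like word; Gsk3b, where RAD21 was called without CTCF; and Lef1, where a CTCF-like word had no call. Each sequence is the 250 bases before the annotated start on the plus strand, from RefSeq (GRCm38.p6). In Axin2 (chr11:108920099-108920348) the capitals mark the 47 bases under the CTCF peak. In Gsk3b (chr16:38088751-38089000) they mark the 246 bases under the RAD21 peak. In Lef1 (chr3:131110047-131110296) they mark a match to the CTCF core word.
Axin2: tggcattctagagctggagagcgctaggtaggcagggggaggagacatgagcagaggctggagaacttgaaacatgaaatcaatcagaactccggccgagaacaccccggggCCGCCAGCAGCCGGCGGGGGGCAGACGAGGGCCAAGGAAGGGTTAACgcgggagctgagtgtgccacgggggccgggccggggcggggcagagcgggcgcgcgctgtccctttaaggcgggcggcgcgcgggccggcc
Gsk3b: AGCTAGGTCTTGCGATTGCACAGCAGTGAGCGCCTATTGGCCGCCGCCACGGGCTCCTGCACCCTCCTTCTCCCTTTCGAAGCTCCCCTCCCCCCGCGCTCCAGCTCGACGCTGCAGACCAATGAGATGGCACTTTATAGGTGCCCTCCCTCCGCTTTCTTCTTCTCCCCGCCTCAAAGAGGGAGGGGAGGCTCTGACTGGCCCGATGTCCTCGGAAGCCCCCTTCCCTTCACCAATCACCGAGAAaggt
Lef1: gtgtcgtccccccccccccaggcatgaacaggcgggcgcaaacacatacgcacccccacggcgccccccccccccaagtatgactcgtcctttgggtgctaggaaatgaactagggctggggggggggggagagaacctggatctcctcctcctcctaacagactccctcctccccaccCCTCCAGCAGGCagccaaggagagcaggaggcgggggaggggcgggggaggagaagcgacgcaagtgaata

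The words searched, on both strands from 250 bases before to 50 bases after each start, were a CTCF core (CC, AG and GGC, parted by 3 and by 2 bases of any kind) and a TCF/LEF core, CTTTGAT. Promoter entries existed for 7 of the 10 genes, with 12 start windows in all; Axin1, Apc and Lgr5 had none. Axin2 carried CCAGCAGCCGGC at chr11:108920214-108920225, 135 bases before the start and inside both the CTCF and the RAD21 peak. Lef1 carried CCTCCAGCAGGC at chr3:131110226-131110237, 71 bases before its first start, with neither a CTCF nor a RAD21 peak there. The CTCF core occurred in 8.67% of all 32585 promoter windows, in 32.4% of the 2515 with a CTCF peak and in 6.68% of the 30070 without one. The TCF/LEF core was in none of the windows of these genes and in 3.76% of all windows. A match is a run of letters and not a measured binding site.

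H3K4me3 was called at the start of nearly every gene of the set, whereas CTCF and RAD21 divided the genes. Within 1 kb of a start, 9 of the 10 genes had an H3K4me3 peak, beside 59.9% of protein-coding genes. The exception was Axin1, which had no promoter entry, so a start inside that gene was not searched. CTCF was called at the starts of 5 genes (Apc, Axin2, Lgr5, Tcf7l1 and Wnt3), beside 23.9% of protein-coding genes. RAD21 was called at the starts of 3 genes (Axin2, Gsk3b and Tcf7l1), beside 36.8%. Axin2 and Tcf7l1 were the 2 genes with all 3 peaks at the start, a pattern of 16.4% of protein-coding genes. For Axin2 this was a start inside the gene, and its outermost 5′ end had no peak of any list within 1 kb. With the outermost ends as starts for every gene, a choice made after seeing the data, Axin2 had none of the 3. H3K4me3 was then called in 8 genes (57.2% of protein-coding genes), CTCF in 4 (26.5%) and RAD21 in 2 (38.6%). Ctnnb1, Lef1 and Tcf7 made up the 3 genes with H3K4me3 and neither CTCF nor RAD21 at the start, a pattern of 24.3%. Of the 7 genes with promoter entries, all 7 had H3K4me3 at a start, 3 had CTCF and 3 had RAD21. Over all protein-coding genes with such entries the shares were 60.7% for H3K4me3, 22.9% for CTCF and 36.1% for RAD21. For RAD21 the direction against the background thus turned between the 10 genes and these 7. For Axin1, Apc and Lgr5 both outermost ends counted as starts. Over genes handled that way the shares were 56.7% for H3K4me3, 27.8% for CTCF and 39.6% for RAD21. Inside the gene body H3K4me3 was called in all 10 genes (63.5% of protein-coding genes), RAD21 in all 10 (59.5%) and CTCF in 9 (50.5%), Wnt3 being the exception. The median gene length was 83.2 kb for these genes and 17.3 kb for all protein-coding genes; the part of length in these gene-body counts was not tested.

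**Figure D1:**
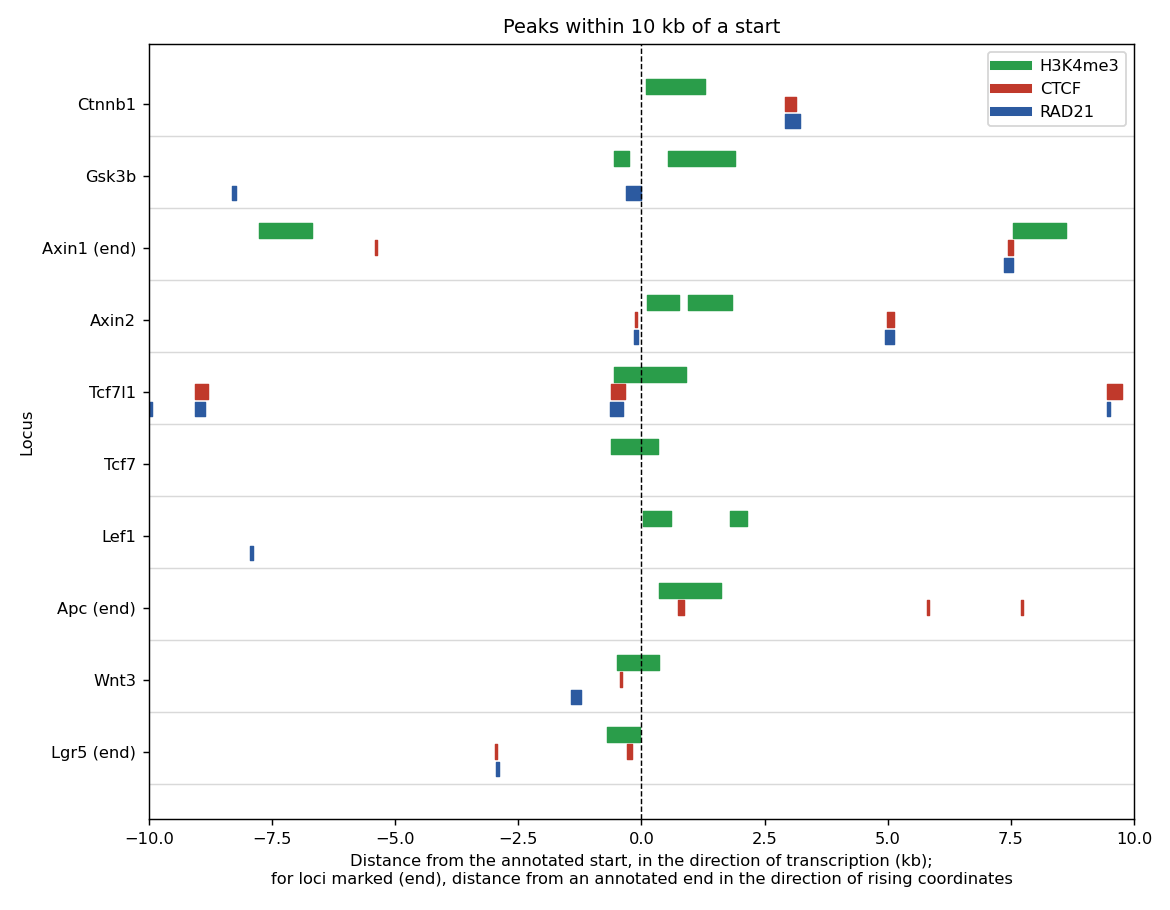
Called H3K4me3 (green), CTCF (red) and RAD21 (blue) peaks around the start of each gene, as bars drawn at their true extent against distance from the start in kb; Axin1 and Apc are centred on the lower annotated end and Lgr5 on the upper. H3K4me3 bars lie at the start or annotated end in 9 of the 10 genes. In Axin1 the first H3K4me3 bar inside the gene begins 7.54 kb from the lower end.

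Wnt3, a ligand of the canonical pathway (chr11:103774175-103818021), had an 858 bp H3K4me3 peak that reached from 499 bp before the start to 358 bp after it. A CTCF peak of 37 bp, the shortest length in the CTCF list, lay inside this domain 438 to 402 bp before the start. The nearest RAD21 peak, 195 bp long, lay 1.23 kb upstream and outside the 1 kb window. Within the gene the lists held a second H3K4me3 peak of 843 bp, 1 RAD21 peak and 0 CTCF peaks. The annotated end of Wnt9b, another WNT ligand gene, overlaps the start of Wnt3, so the 858 bp domain counted for both genes. Of 7 RAD21 peaks in the locus 3 overlapped CTCF, and all 3 were in the upstream flank, 10.0 to 15.8 kb from the start.

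Lgr5 encodes a receptor for R-spondins, which strengthen WNT signalling, and is itself a WNT target in intestinal stem cells. The gene (chr10:115450314-115587780) held a 658 bp H3K4me3 peak just inside its upper end, and a CTCF peak of 91 bp lay within that domain. No RAD21 peak overlapped it, and the nearest, 71 bp long, lay 2.89 kb inside the gene on a 39 bp CTCF peak. Its only other H3K4me3 peak, 294 bp, had the shortest length in that list. The locus held 0.842 H3K4me3 peaks per 100 kb, the lowest density of the 10 with 50 kb flanks; with 100 kb flanks Ctnnb1 was the lowest, at 0.881. It also held a long RAD21 peak without CTCF, 491 bp at chr10:115468853-115469343. In the flank a 649 bp RAD21 peak spanned 2 separate CTCF peaks of 89 and 70 bp.

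Among the genes of the destruction complex, Gsk3b had cohesin at its start and Axin2 had CTCF with cohesin at a start inside the gene. At their annotated ends, Apc had CTCF alone and Axin1 had neither. Gsk3b, the kinase that 2i inhibits (chr16:38089001-38246084), had an H3K4me3 domain of 1357 bp that began 534 bp after the start. A second, 319 bp H3K4me3 peak lay 563 to 245 bp before the start, at the lncRNA BC031361. The RAD21 peak of 313 bp lay 317 to 5 bp before the start, over the letters printed above, and overlapped the edge of the 319 bp peak. The nearest CTCF peak to the start, paired with RAD21, lay 48.4 kb downstream, inside the gene. In all, 7 of 13 RAD21 peaks of the Gsk3b locus overlapped CTCF.

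Axin1, the scaffold of the complex (chr17:26131217-26195811), was the gene without a peak of any list within 1 kb of an annotated end. An H3K4me3 peak of 1066 bp (chr17:26138761-26139826) began 7.54 kb inside the gene, next to the lncRNA Gm46600. It overlapped a CTCF peak of 117 bp, which in turn overlapped a RAD21 peak of 174 bp that ended before the H3K4me3 peak began. All 9 RAD21 peaks of the locus overlapped CTCF, and 3 of the 12 CTCF peaks had no RAD21. The neighbourhood was gene-rich, with 8 other protein-coding genes in the locus, against 0 to 3 in the other loci.

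Axin2, a scaffold of the complex and a direct target of WNT signalling (chr11:108917828-108950783), had its start peaks packed within 2 kb. These peaks lay around a start inside the gene, chr11:108920349, and no peak of any list lay within 1 kb of the outermost 5′ end. The CTCF peak of 47 bp lay 138 to 92 bp before the start, wholly inside a RAD21 peak of 82 bp. An H3K4me3 peak of 654 bp followed 103 bp after the start, and another of 888 bp began 954 bp after it. Thus the CTCF and RAD21 peaks stood upstream of the mark without touching it. A further pair, CTCF of 134 bp and RAD21 of 171 bp, lay 4.95 kb downstream. The longest pair of the locus, RAD21 of 565 bp over CTCF of 282 bp, lay in the upstream flank. All 3 H3K4me3 peaks of the locus were inside the gene, and 0 lay in the flanks.

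Apc, a scaffold that holds β-catenin in the complex (chr18:34220297-34322190), had a 1253 bp H3K4me3 domain that began 362 bp inside its lower end. A CTCF peak of 127 bp lay inside the domain without RAD21. The transcribed pseudogene Gm10548 has an annotated end at the same domain. CTCF was dense in the gene, with 9 of the 12 peaks of the locus, against 4 of the 9 RAD21 peaks. Of the 12 CTCF peaks 5 had no RAD21, the largest such number among the 10 loci, and 3 of those 5 were 39 bp long or shorter. The longest pair lay 8.30 kb beyond the upper end, where RAD21 of 628 bp covered CTCF of 547 bp at the flanking gene Srp19, which encodes a subunit of the signal recognition particle.

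Ctnnb1 encodes β-catenin, the effector of the pathway (chr9:120933400-120960507). Its H3K4me3 domain of 1207 bp began 90 bp after the start, with no CTCF or RAD21 peak in the window. A pair lay just downstream of it, CTCF of 231 bp inside RAD21 of 321 bp, 2.91 kb after the start. A RAD21 peak of 240 bp and a CTCF peak of 220 bp in the flank, 17.9 kb away, stood beside the 549 bp H3K4me3 peak of the lncRNA 1700020M21Rik. The locus was sparse in cohesin, with 3 RAD21 peaks, all of them on CTCF. By number of RAD21 peaks it exceeded 17.6% of protein-coding genes.

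The 3 TCF/LEF genes of the set encode DNA-binding partners of β-catenin. Tcf7l1 had peaks of all 3 lists at its start, whereas Tcf7 and Lef1 had H3K4me3 with neither CTCF nor RAD21 there. Tcf7l1, which acts mainly as a repressor in embryonic stem cells (chr6:72626371-72789045), had a domain of 1463 bp across the start. It was the widest of the 10 genes by longest single peak. A CTCF peak of 283 bp and a RAD21 peak of 264 bp overlapped each other and the upstream end of that domain. Inside the gene 7 of the 12 CTCF and RAD21 pairs of the locus were called, and 3 short H3K4me3 peaks of 294, 294 and 468 bp stood away from the start, the first of them at an end of the lncRNA Gm31391.

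Tcf7, which encodes TCF1 (chr11:52246527-52283383), had a 966 bp H3K4me3 domain across its start with no CTCF or RAD21 in the window. Its nearest pair lay 14.1 kb away, outside the gene. Of the 7 RAD21 peaks of the locus 6 overlapped CTCF. The exception, 360 bp long, sat on a 1578 bp H3K4me3 peak inside the neighbouring gene Skp1, which encodes a subunit of SCF ubiquitin ligases.

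Lef1 (chr3:131110297-131224357) had the narrowest domain at a start by longest single peak, 561 bp, followed by a 351 bp H3K4me3 peak. A further H3K4me3 peak of 692 bp lay within the gene at chr3:131178875-131179566. The locus was polarised: all 8 CTCF and RAD21 pairs lay 56.0 to 115 kb from the nearest start, 3 of them near the other end of the gene and 5 beyond it. One CTCF peak of 708 bp, at chr3:131245814-131246521, was the longest CTCF peak of the 10 loci and overlapped 2 RAD21 peaks of 232 and 154 bp. A CTCF peak of 39 bp and a RAD21 peak of 72 bp within the gene lay side by side without overlapping, at chr3:131170387-131170425 and chr3:131170461-131170532.

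**Figure D2:**
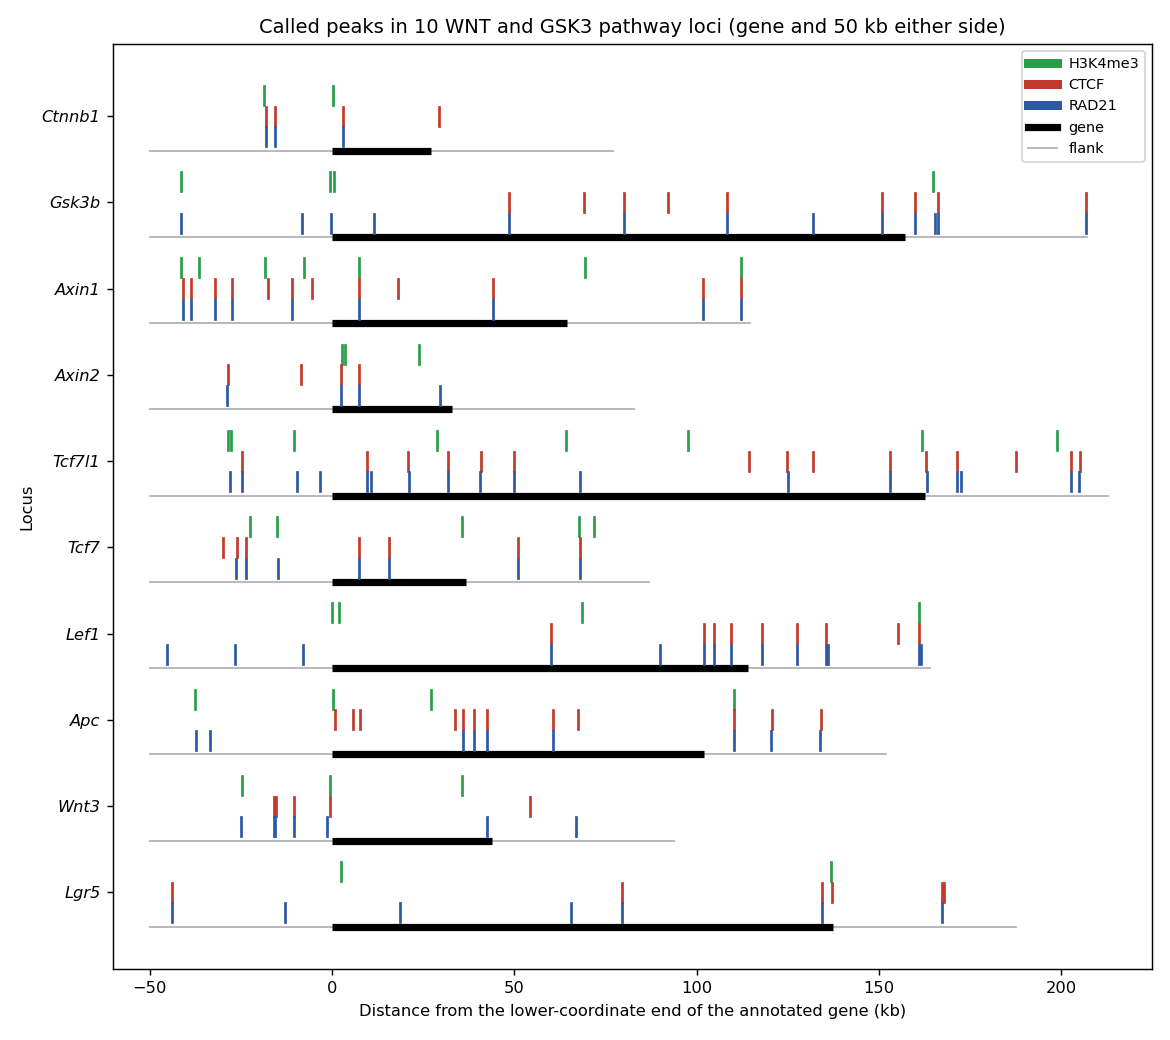
Positions of all called H3K4me3 (green), CTCF (red) and RAD21 (blue) peaks in the 10 loci, as ticks at peak positions against distance in kb from the lower-coordinate end of each gene; black bars are genes and grey lines the 50 kb flanks. CTCF and RAD21 ticks gather at the right end of Lef1 and across the whole of Tcf7l1, while Ctnnb1 and Axin2 hold 4 or fewer ticks of each kind.

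The order of domain widths at the start was Tcf7l1 (1463 bp), Gsk3b (1357 bp), Apc (1253 bp), Ctnnb1 (1207 bp), Tcf7 (966 bp), Axin2 (888 bp), Wnt3 (858 bp), Lgr5 (658 bp) and Lef1 (561 bp). Width was the length of the longest single H3K4me3 peak within 1 kb of a start. With all such peaks summed, Gsk3b (1676 bp) and Axin2 (1542 bp) exceeded Tcf7l1 (1463 bp). Lef1 (912 bp) then exceeded Lgr5 (658 bp), so both ends of the order depended on this measure. The 12947 marked protein-coding genes had a median of 925 bp with quartiles of 692 and 1209 bp. Tcf7l1 was wider than 89.7% and Gsk3b wider than 84.6% of marked genes. Lef1 was wider than 14.2% and Lgr5 wider than 21.6%. The other 5 lay between 42.9% (Wnt3) and 78.2% (Apc). With 1 list, no error could be put on a width, so neighbours in this order could not be separated.

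By number of peaks Tcf7l1 stood at the top of the set and Ctnnb1 near the bottom. Tcf7l1 held 8 H3K4me3, 15 CTCF and 18 RAD21 peaks, more than 94.1%, 97.5% and 98.0% of protein-coding genes with the same flanks. Among genes from 0.5 to 2 times its length it exceeded 96.2%, 92.3% and 91.6%, and per 100 kb it exceeded 70.9%, 72.0% and 74.0%. Its rank therefore depended on whether locus length was taken into account. Lef1 followed with 14 RAD21 peaks (more than 93.9% of genes, or 70.1% per 100 kb). Gsk3b had 13 (more than 91.4%, or 52.6% per 100 kb).

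For CTCF, Axin1 and Apc each held 12 peaks, more than 92.3% of genes. Among genes of similar length Axin1 exceeded 90.7% and Apc 87.3%, and per 100 kb they exceeded 83.8% and 74.4%. With 50 kb flanks CTCF density ran from 2.53 per 100 kb in Lgr5 to 7.29 in Axin1, and RAD21 density from 2.36 per 100 kb in Ctnnb1 to 6.85 in Tcf7l1. The order of densities changed with the flank. With 25 kb flanks the highest CTCF density was that of Apc, 7.24 per 100 kb, with Axin1 at 5.24, and the highest RAD21 density was that of Wnt3, 7.46. With 100 kb flanks Axin1 was again the highest for CTCF, at 6.80, and Lef1 was the highest for RAD21, at 7.32. The lowest CTCF density was then that of Axin2, 2.15 per 100 kb. For RAD21 the lowest was Axin1 with 25 kb flanks, 2.62 per 100 kb, and Lgr5 with 100 kb flanks, 2.67. With 50 kb flanks the median density over the 10 loci was 2.03 H3K4me3, 3.85 CTCF and 4.96 RAD21 peaks per 100 kb, where the medians over all protein-coding genes were 1.80, 3.63 and 4.87. Pooled over 1879 kb, the loci held 2.24, 4.42 and 4.84 per 100 kb, so for RAD21 the pooled value lay below the all-gene median and the median locus above it. Of the 10 loci 7, 5 and 5 lay above the all-gene medians. The protein-coding gene most like Ctnnb1 in its 3 peak counts and locus length was Gm10033, at a Euclidean distance of 0.00103 over 4 log2(value + 1) values. For Axin2 it was Mtfr1 (0.00592) and for Lgr5 Slc8a3 (0.0101), each with the same 3 counts as its partner.

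**Figure D3:**
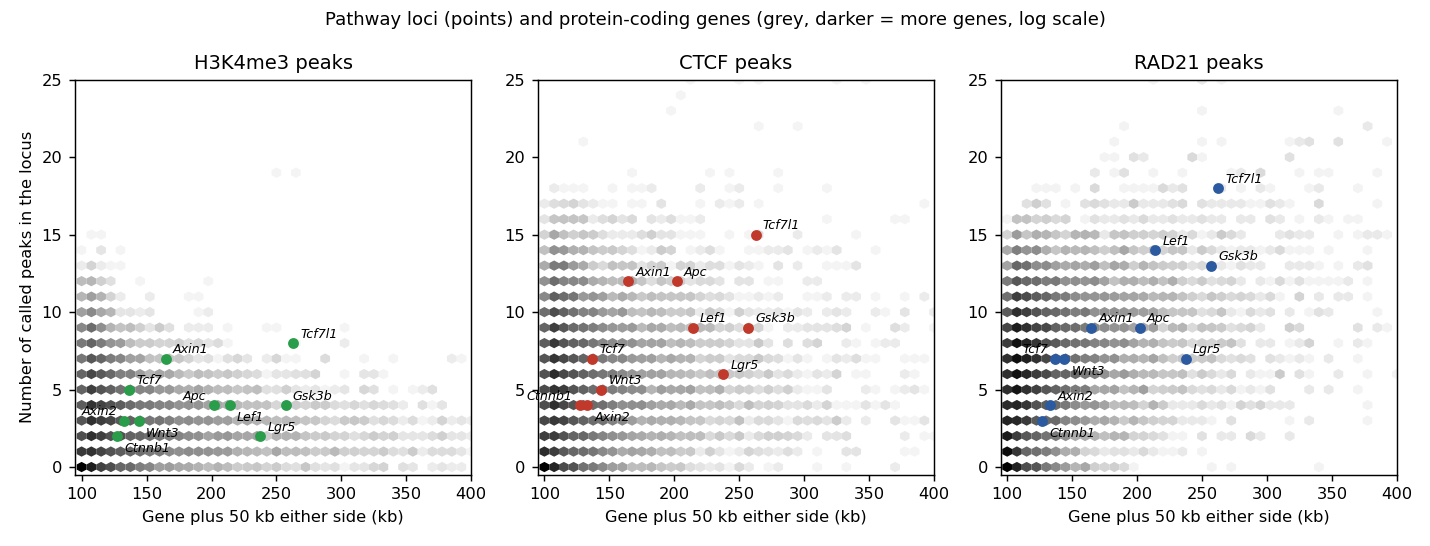
Number of called peaks in each locus against locus length in kb, one panel per peak list; coloured points are the 10 loci and grey hexagons the protein-coding genes, darker for more genes on a log scale. The 557 genes with loci longer than 400 kb are not drawn, and genes with more than 25 peaks are drawn at 25; Tcf7l1 lies highest of the 10 in every panel.

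Most cohesin peaks of the loci lay on CTCF. Of 91 RAD21 peaks 62 overlapped a CTCF peak, 68.1% (Wilson 95% interval 58.0 to 76.8%), against 55.8% (55.5 to 56.2%) of RAD21 peaks elsewhere; the share over the whole list was 55.9%. The share ran from 3 of 7 in Wnt3 and 7 of 13 in Gsk3b to 9 of 9 in Axin1 and 3 of 3 in Ctnnb1. RAD21 peaks with neither CTCF nor H3K4me3 numbered 22, 24.2% (16.5 to 33.9%), against 38.6% elsewhere, where the whole list gave 38.5%. RAD21 peaks on CTCF alone numbered 58 (63.7%), where the whole list gave 51.8%, and 4 (4.40%) lay on both CTCF and H3K4me3, where it gave 4.1%. On H3K4me3 without CTCF there were 7 (7.69%), beside 5.6%. Of the 91 peaks 12 had the shortest RAD21 length, 71 bp (13.2%), beside 16.1%. These intervals cover counting error only, peaks of 1 locus are not independent, and the differences were not tested.

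In the other direction, 62 of 83 CTCF peaks overlapped RAD21, 74.7% (64.4 to 82.8%), against 81.9% (81.6 to 82.2%) elsewhere and in the whole list. The CTCF peaks without RAD21 were short, with a median of 39 bp over 21 peaks in the loci and 39 bp elsewhere. CTCF peaks of at most 39 bp made up 16 of the 83 (19.3%), where the whole list gave 15.1%, and 3 of these 16 overlapped RAD21 (18.8%), against 39.2% elsewhere. Of the 67 longer ones 59 did (88.1%), against 89.5% elsewhere. The overlaps formed 63 pairs, 27 of them in the genes. The midpoints of a pair lay a median of 34 bp apart (quartiles 17.2 and 70.8 bp), and in 27 pairs the CTCF peak was wholly inside the RAD21 peak. The pair nearest to a start lay within 1 kb in Axin2 and Tcf7l1, 2.89 kb away in Lgr5 and 2.91 kb in Ctnnb1, but 48.4 kb away in Gsk3b and 56.0 kb in Lef1.

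Peak length was the only further value of a peak. In the loci and elsewhere the median lengths were 656 and 682 bp for H3K4me3, 101 and 104 bp for CTCF, and 156 and 140 bp for RAD21. RAD21 peaks on CTCF had medians of 169.5 bp in the loci and 183 bp elsewhere, and those without CTCF 131 and 95 bp. In both places, therefore, the RAD21 peaks on CTCF were the longer ones. CTCF peaks on RAD21 had medians of 150.5 bp in the loci and 119 bp elsewhere.

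**Figure D4:**
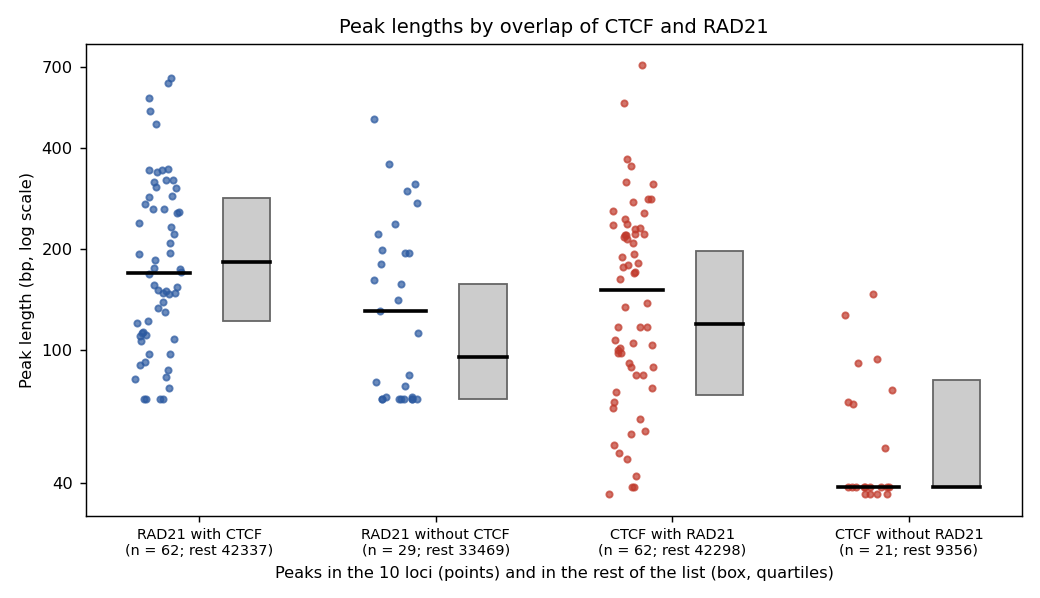
Peak length in bp (log axis) of RAD21 peaks with and without CTCF and of CTCF peaks with and without RAD21; points are peaks in the 10 loci, grey boxes span the quartiles of the rest of each list, and black lines are medians. RAD21 peaks with CTCF lie higher than those without, and most CTCF peaks without RAD21 lie at 37 or 39 bp.

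Inside these genes few H3K4me3 peaks overlapped cohesin. Over the whole loci, 10 of 42 H3K4me3 peaks overlapped CTCF (23.8%, 13.5 to 38.5%), where the whole list gave 17.1%, and 10 overlapped RAD21, where it gave 31.5%. In turn, 11 of the 91 RAD21 peaks overlapped H3K4me3 (beside 9.7%), as did 10 of the 83 CTCF peaks (beside 7.5%). In the gene bodies 1 of 20 H3K4me3 peaks overlapped RAD21, the one at the start of Tcf7l1, where 32.1% of H3K4me3 peaks in protein-coding genes did. CTCF was met by 5 of the 20, beside 17.5%. None of the 37 RAD21 peaks that lay in the genes overlapped H3K4me3, beside 13.7% of RAD21 peaks in protein-coding genes. This allows a share of up to 8.11% by the limit of 3 counts (the Wilson upper limit is 9.41%). Both limits treat the 37 peaks as independent, which peaks of 1 locus are not, and the difference was not tested. The result also depended on the gene boundary. RAD21 peaks that overlapped H3K4me3 lay just outside the annotated gene at Gsk3b (5 bp before the start) and at Tcf7l1 (385 bp before the start). In the flanks, 9 of 22 H3K4me3 peaks overlapped RAD21, where the whole list gave 31.5%. By place, 12 of the 42 H3K4me3 peaks were at a start of the named gene (median 873 bp) and 16 at an end of another gene (712 bp). Of the 12 at a start 4 overlapped CTCF and 2 overlapped RAD21, where 18.2% and 34.1% of H3K4me3 peaks at protein-coding starts did. A further 7 were between or inside other genes (590 bp) and 7 inside the named gene away from its start (468 bp). The last 7 lay in Axin2, Tcf7l1, Lef1, Apc, Wnt3 and Lgr5, and 0 of them overlapped CTCF or RAD21. Peaks at an end of another gene were kept out of this class even where they lay inside the named gene. Those were the 1066 bp peak of Axin1, which overlapped CTCF, and a 294 bp peak of Tcf7l1, which overlapped neither. No share was taken over all H3K4me3 peaks inside genes away from a start, so the count of 0 of 7 has no background. The shortest H3K4me3 length, 294 bp, was that of 3 of the 42 peaks, beside 7.44% of the list.

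The rest of the pathway was followed in 81 other genes grouped by role. An H3K4me3 peak was called at the start of 69 of them, 85.2% (75.9 to 91.3%), beside 59.9% of protein-coding genes. CTCF was called at 28 starts (34.6%, beside 23.9%) and RAD21 at 34 (42.0%, beside 36.8%). All 3 lists had a peak at 17 of the 81 starts, beside 16.4% of protein-coding genes. No list had one at 5 starts, and 7 of the 12 unmarked genes had H3K4me3 inside the gene. The shares of all protein-coding genes for these last counts were not taken.

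Among 18 ligand genes 14 were marked. The widest were Wnt5b (1253 bp) and Wnt2b (1156 bp), and the unmarked included Wnt1 and Wnt16. Both export genes were marked, Porcn (1175 bp), which acylates WNT proteins, and Wls (1142 bp), which carries them to the surface. Of 20 genes for receptors and the R-spondin system 19 were marked, led by the Frizzled genes Fzd2 (1558 bp) and Fzd1 (1355 bp). The exception was Rnf43, a ubiquitin ligase that removes Frizzled receptors, which had CTCF and RAD21 at the start. Secreted inhibitors were marked in 8 of 12 genes, led by Wif1 (1230 bp) and Sfrp1 (1084 bp), which bind WNT proteins. Dkk1 and Dkk2, whose products bind LRP receptors, were unmarked; Dkk1 had RAD21 and Dkk2 had CTCF and RAD21 at the start.

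Cytoplasmic components were marked in 11 of 13 genes. Dvl3 (1598 bp) relays the receptor signal and Tnks (1579 bp) encodes tankyrase, which targets AXIN for destruction. Apc2 and Csnk1a1, the casein kinase of the destruction complex, were unmarked at the start, but each had H3K4me3 inside the gene and CTCF with RAD21 at the start. Of 10 nuclear genes 9 were marked, with Tle3 (2221 bp), a corepressor of the Groucho family, and Tcf7l2 (1848 bp) the widest and Tle2 unmarked. All 6 target genes were marked, led by Myc (1014 bp) and Sp5 (784 bp). By longest single peak, Tle3, Tcf7l2, Dvl3, Tnks and Fzd2 were among the pathway genes with wider domains than any of the 10 named genes.

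**Figure D5:**
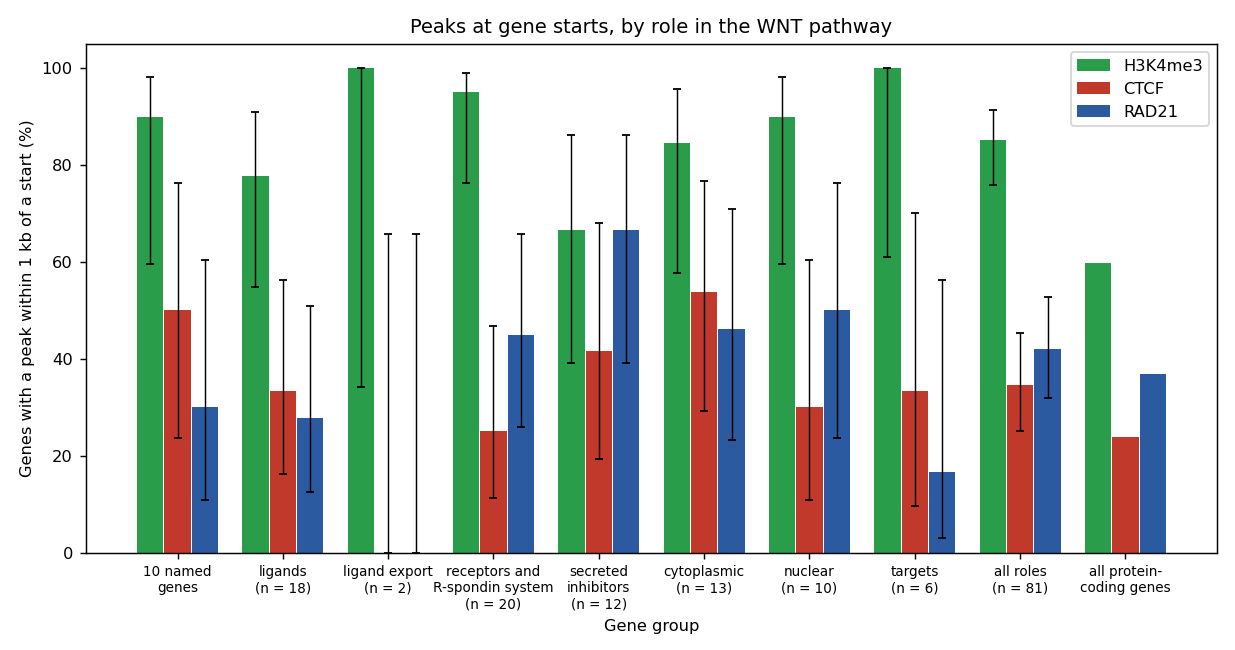
Percent of genes with an H3K4me3, CTCF or RAD21 peak within 1 kb of a start, for the 10 named genes, the other pathway genes by role and all protein-coding genes; bars are shares and lines Wilson 95% intervals, which cover counting error only. H3K4me3 was called at 9 of 10 and 69 of 81 pathway starts, beside 59.9% of all protein-coding genes.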

How the data were processed

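Per the labels' protocols, ChIP-exo libraries came from formaldehyde-fixed cells. The submitters' processing notes list Bowtie2 2.4.5, Picard 2.27.4, bedtools 2.30.0, MACS2 and mm10, without the step each served; settings, the calling threshold and any control library are all not given in the sources used here. Lists were deposited as positions (chromosome, start, end), a unit other than a count or score.

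Peaks on the 19 autosomes and X were counted in Python 3.11.15 (numpy 2.4.6, pandas 2.3.3, scipy 1.17.1, matplotlib 3.10.9). Overlap meant at least 1 bp. Starts came from the RefSeq promoter table (17274 protein-coding genes) with the outermost 5′ end; for the other 4357 genes both outermost ends were used. Exons and introns were not used here. Wilson 95% intervals cover counting error only, and no test was possible with 1 list per antibody. The code recovered all 1500 planted overlaps in simulated data, and 30 locus counts matched bedtools 2.31.1 with 0 differing.

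All 10 genes are named; of the other pathway genes, per role, the 2 widest marked and the first 2 unmarked alphabetically; and the 3 closest genes by peak counts and locus length. Neighbouring genes and single peaks were named after their values were seen. The genes and lists were chosen with earlier results of these data known. Alternatives varied the flank, the start window, the overlap rule, the peaks kept and the loci pooled.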

Additional observations from a re-analysis of the deposited data

How the results depend on the processing

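Positions from 1 list per antibody limit every result: no call has a replicate, depth is unknown, and no interval covers variation between cultures. The gene body alone held 20 H3K4me3, 39 CTCF and 37 RAD21 peaks, and 100 kb flanks raised CTCF to 130 and RAD21 to 153. With peaks above the median length of their list, the loci held 19, 40 and 53 (H3K4me3, CTCF and RAD21). CTCF was called in 9 of the 10 genes over the gene body (50.5% of protein-coding genes). At the start it was called in 2 with the longer peaks (14.6%). It was called there in 3 of the 7 with a promoter entry (22.9%), a choice made after seeing the data. RAD21 was called in all 10 over the gene body (59.5%) and at the start in 3 of the 7 with a promoter entry (36.1%). Of the 81 other genes CTCF was called at 45 within 2.5 kb (34.5% of protein-coding genes) and at 56 over the gene body (50.5%), and RAD21 at 53 (47.6%) and 61 (59.5%). With the shortest calls left out of both the CTCF and the RAD21 list, 85.1% of CTCF peaks in the loci overlapped RAD21. Genome-wide the same filter gave 87.6%. With only the longer peaks of both lists this share was 75.0%, where it was 71.7% genome-wide, so the direction against the list turned. Leaving out each locus in turn gave 64.6 to 70.5% for RAD21 with CTCF and 73.5 to 77.5% for CTCF with RAD21. The causes of these shifts were not tested. No paired analysis was possible because the replicate numbers belong to 2 CTCF libraries with a single union list.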

Other observations

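The CTCF list held a 94 bp peak inside Gsk3b, at chr16:38158008-38158101, whose first base is the first base of the annotated snoRNA gene Gm25617 (chr16:38158008-38158139). No RAD21 peak overlapped it. It was the longer of the 2 CTCF peaks without RAD21 in the Gsk3b locus; the other was 39 bp. This peak was chosen after its values were seen, and how often CTCF peaks begin at a snoRNA gene was not tested. In Tcf7l1, a CTCF peak of 147 bp without RAD21 was the longest such peak of the 10 loci.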
